A study of Mus musculus with 8 samples.

Results

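The genes described here are Cpa3 and other genes used as markers of mast cells and basophils, measured in sorted fetal liver stem cells of Crebbp+/- and wild-type mouse embryos. The list held 10 genes, and every probe set that the array annotation pairs with exactly 1 of these symbols was taken. This gave 13 probe sets for 9 of the 10 genes, out of 18193 genes that had such a probe set in the series. Il1rl1 had no probe set under this symbol in the annotation used and was not analysed here. Cpa3 entered the list because of its difference between the genotypes, so that difference is given as a description, without a test, and the remaining genes were added as its cell-type companions.

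The Crebbp+/- embryos carried 1 mutant copy of Crebbp, which encodes the histone acetyltransferase and coactivator CBP, and the wild-type embryos carried none. Both genotypes were on a C57BL/6 background, and the labels state the age as 14.5 dpc (days post coitum) in one place and 14 dpc in another. The cells, called FLHSC (fetal liver haematopoietic stem cells) in the labels, were sorted as Sca-1+, Lin-, AA4.1+ and c-Kit++. Each preparation combined 15 embryos, and 12 ng of its total RNA was amplified with the NuGen Ovation system and hybridised to Affymetrix Mouse 430 2.0 arrays. There were 2 numbered samples of each genotype with 2 arrays per sample. No label says that the arrays of a sample came from separate cells, so they were averaged, which left n = 2 samples per genotype. No label ties a sample to its own litter, and the spread between samples may be partly technical.

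Mast cells and basophils are granule-bearing cells of the myeloid lineage that release histamine and proteases when IgE on their surface meets its antigen. Their granules store carboxypeptidase A3 (Cpa3), chymases such as Cma1, tryptases such as Tpsb2 and, in basophils, the protease Mcpt8, while Hdc makes histamine from histidine. The high-affinity IgE receptor is built from an alpha chain (Fcer1a), a beta chain (Ms4a2) and a gamma chain (Fcer1g), the last of which also serves other Fc receptors of myeloid cells. Il1rl1 is the receptor for interleukin-33, and Mitf is a basic helix-loop-helix factor on which mast cell development depends. Mast cells keep Kit, the receptor for stem cell factor, which the sort also selected.

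The promoter sequences of 4 of these genes are shown because Cpa3 is set against them below. Fcer1a and Ms4a2 lay at background, and Mitf lay far above it. For Mitf only start 3 is shown. It was the only window of the group with a full cyclic AMP response element (CRE), and starts 1 and 2 of Mitf had none. The CRE is the site of the CREB family of factors that recruit CBP. Which Mitf start was used in these cells was not measured. Each sequence is the 250 bases before a transcription start in RefSeq, build GRCm38.p6, read 5' to 3' on the strand of the gene. Capitals mark GATA hexamers on both strands, spelled AGATAA or with a final G as AGATAG, with a leading T as TGATAA or with both as TGATAG, and in Mitf also the CRE (TGACGTCA).
Cpa3 (chr3:20242182-20242431, minus strand): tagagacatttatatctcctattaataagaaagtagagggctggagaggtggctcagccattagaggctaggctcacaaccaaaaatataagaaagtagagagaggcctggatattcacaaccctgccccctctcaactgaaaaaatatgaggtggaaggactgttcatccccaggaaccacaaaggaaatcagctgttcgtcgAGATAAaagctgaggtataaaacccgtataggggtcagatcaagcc
Fcer1a (chr1:173227230-173227479, minus strand): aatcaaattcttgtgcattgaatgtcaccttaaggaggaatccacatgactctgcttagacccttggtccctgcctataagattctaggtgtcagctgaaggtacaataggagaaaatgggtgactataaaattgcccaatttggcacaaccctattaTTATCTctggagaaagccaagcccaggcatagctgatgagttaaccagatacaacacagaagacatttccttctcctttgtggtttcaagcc
Ms4a2 (chr19:11623720-11623969, minus strand): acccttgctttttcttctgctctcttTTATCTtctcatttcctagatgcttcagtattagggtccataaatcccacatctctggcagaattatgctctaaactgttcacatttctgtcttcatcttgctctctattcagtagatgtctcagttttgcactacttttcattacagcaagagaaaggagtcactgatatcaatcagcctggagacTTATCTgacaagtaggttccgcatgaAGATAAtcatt
Mitf, start 3 (chr6:97991533-97991782, plus strand): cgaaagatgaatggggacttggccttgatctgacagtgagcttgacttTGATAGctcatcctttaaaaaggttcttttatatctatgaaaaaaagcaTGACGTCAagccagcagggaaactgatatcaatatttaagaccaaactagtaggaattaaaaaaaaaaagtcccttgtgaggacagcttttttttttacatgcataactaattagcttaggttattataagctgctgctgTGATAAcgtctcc

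Cpa3 had 1 GATA hexamer, 40 bases before its start. Windows were found for 9 of the 10 genes, 12 windows in all since some genes have several starts. A GATA hexamer was present in 9 of these 12 windows, compared with 26.5% of 32851 mouse windows of the same length. An E-box (CANNTG), the kind of site bound by helix-loop-helix factors, was present in 9 of the 12, compared with 66.2% of all windows. The full CRE was present in 1 of the 12 windows and in 1.55% of all windows. Its first 5 bases (TGACG, both strands) were present in 2 of the 12 and in 17.8% of all, and in the Mitf window both matches lie inside the full CRE. These are matches of letters only, and binding was not measured.

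Distance from background decides what can be said of each gene. Values are log2 signals after GCRMA, and the 6 flattest probe sets of the list lay between 2.23 and 2.34 on every array. Background in a sample was set at the 95th percentile of 44 probe sets for olfactory receptors, which came to 2.39 and 2.43 in Crebbp+/- samples 1 and 2, against 2.38 and 2.48 in wild-type samples 1 and 2. Fcer1g and Mitf had a probe set more than 5 log2 units above background in every sample. Cpa3 was more than 1 unit above it in the Crebbp+/- samples alone, the group in which it was chosen to be high. Mcpt8 was less than 1 unit above it in every sample, Hdc was clearly above it on 1 array, and Tpsb2, Cma1, Fcer1a and Ms4a2 were at or close to it. Only probe sets with a mean above 2.72, the median over the table, entered the fit, and 4 of the 13 did so, 1 each for Cpa3, Mcpt8, Fcer1g and Mitf. The other 9 were below that limit, and for them only values are given.

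**Figure D1:**
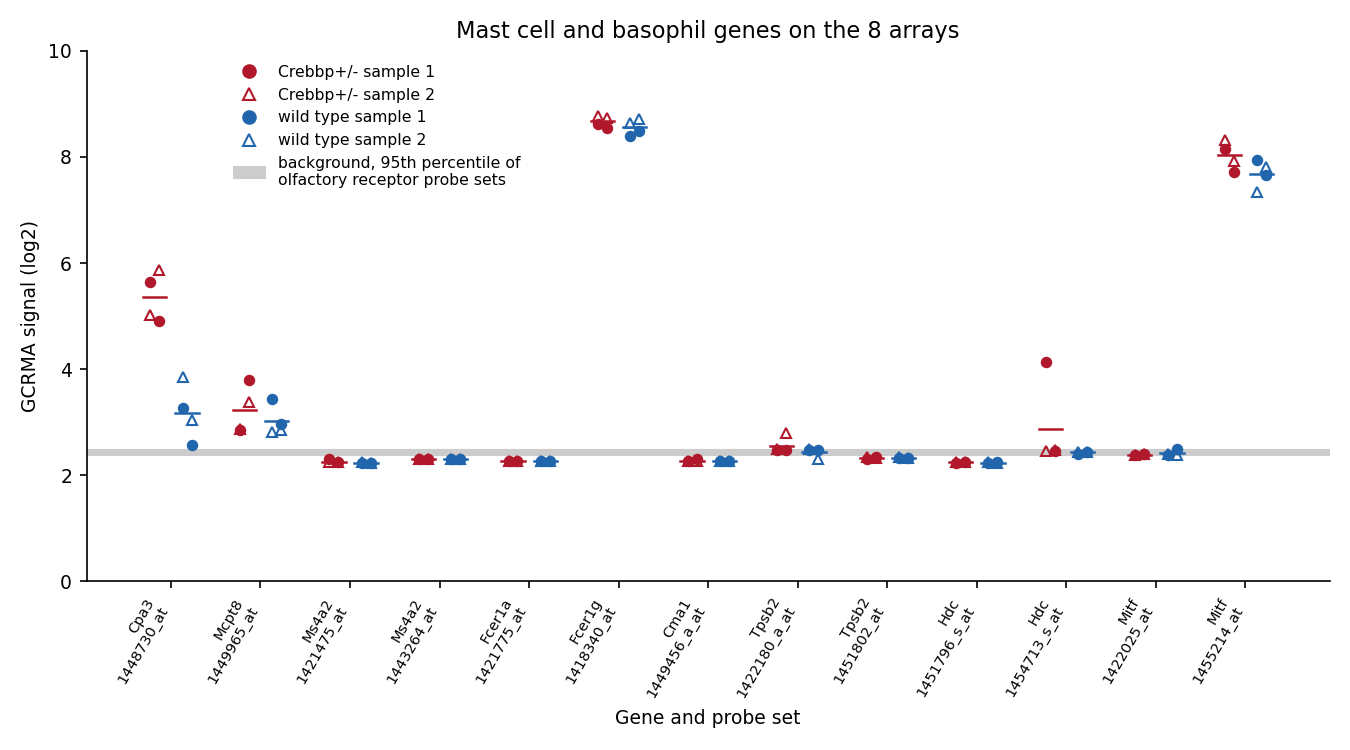
GCRMA log2 signal (vertical axis) of each of the 13 probe sets (horizontal axis) on the 8 arrays, Crebbp+/- in red left of wild type in blue, with circles for sample 1, triangles for sample 2 and a bar at the mean of each genotype; the grey band spans the background of the samples. Cpa3 is the probe set whose genotypes separate well above the band, with means of 5.36 in Crebbp+/- and 3.18 in wild type, while the lone high Hdc point is 1 array at 4.13.

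Cpa3, on mouse chromosome 3, was measured by 1 probe set, 1448730_at. Its log2 signal was 5.64 and 4.90 on the arrays of Crebbp+/- sample 1 and 5.03 and 5.86 on those of Crebbp+/- sample 2. In wild type it was 3.27 and 2.56 on the arrays of sample 1 and 3.85 and 3.04 on those of sample 2. Every Crebbp+/- array thus lay above every wild-type array, and the lowest wild-type array lay near background.

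The sample means of Cpa3 were 2.88 and 3.01 log2 units above background in Crebbp+/-, against 0.53 and 0.97 in wild type. Among all probe sets of a sample this placed it at percentiles 66.9 and 67.9 in Crebbp+/- and at 52.1 and 56.5 in wild type. The genotype means were 5.36 ± 0.12 in Crebbp+/- and 3.18 ± 0.37 in wild type (SD, n = 2 each), a difference of 2.18 (SE 0.29 in the limma fit over all tested probe sets), or 4.52-fold on the linear scale. Within the samples numbered 1 the difference was 2.35, and within those numbered 2 it was 2.00. Ordered by signed difference from the most positive, it ranked 3 among 22518 tested probe sets, and negative differences of any size were ranked below it. With wild type so near background, the size of the ratio depends on how GCRMA treats weak signals. RNA from a whole preparation cannot tell more cells that contain the transcript from more transcript per cell.

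Since the choice of Cpa3 used this contrast, its place against other probe sets is given without a reading. All 4 Crebbp+/- arrays were above all 4 wild-type arrays for 3.24% of tested probe sets. A difference of at least 1 log2 unit in favour of Crebbp+/- within both sample numbers was found for 0.258% of them.

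Among the other granule proteases, Mcpt8, the basophil protease on chromosome 14, stayed low in both genotypes. Its signal was 2.85, 3.79, 2.87 and 3.38 on the Crebbp+/- arrays, against 3.44, 2.96, 2.81 and 2.86 on the wild-type arrays. The genotypes overlapped, and the arrays of a single Crebbp+/- sample differed by more than the genotypes did. The means were 3.22 ± 0.14 in Crebbp+/- and 3.02 ± 0.26 in wild type (SD, n = 2 each), a difference of 0.20 (SE 0.22), with 0.12 in the samples numbered 1 and 0.29 in those numbered 2. Mcpt8 lay 0.93 and 0.69 above background in Crebbp+/-, against 0.82 and 0.36 in wild type.

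Cma1, a chymase gene on the same chromosome, ran from 2.26 to 2.30 over all 8 arrays and was below background in every sample. Tpsb2, a tryptase gene, had 2 probe sets. The first, 1422180_a_at, read 2.48, 2.48, 2.49 and 2.80 on the Crebbp+/- arrays, against 2.47, 2.48, 2.49 and 2.31 on the wild-type arrays, and the second, 1451802_at, ran from 2.31 to 2.34. At the first, 1 Crebbp+/- array stood above the rest and 1 wild-type array below them, and the second was flat.

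Hdc, which encodes histidine decarboxylase, gave a raised value on 1 array only. Its probe set 1454713_s_at read 4.13, 2.46, 2.46 and 2.48 on the Crebbp+/- arrays, against 2.41, 2.44, 2.44 and 2.44 on the wild-type arrays. The arrays of the genotypes did not overlap, but without the array at 4.13 the Crebbp+/- values were within 0.1 of the wild-type values. The difference of 0.45 between the genotype means came from 0.87 in the samples numbered 1 and 0.03 in those numbered 2. Its other probe set, 1451796_s_at, ran from 2.23 to 2.25 and did not show the raised array.

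Of the IgE receptor chains, only the shared gamma chain was above background. Fcer1a ran from 2.26 to 2.27 over the 8 arrays. The probe sets of Ms4a2 ran from 2.24 to 2.31 and from 2.30 to 2.32. All 3 probe sets were below background in all 4 samples, so no signal of the chains specific to the IgE receptor was detectable in either genotype.

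Fcer1g, on chromosome 1, was far above background in all samples. It read 8.63, 8.55, 8.77 and 8.72 on the Crebbp+/- arrays, against 8.40, 8.49, 8.64 and 8.72 on the wild-type arrays, 6.06 to 6.31 above background. The genotypes overlapped, with means of 8.67 ± 0.11 in Crebbp+/- and 8.56 ± 0.17 in wild type (SD, n = 2 each) and a difference of 0.11 (SE 0.22). Within the samples numbered 1 and 2 the differences were 0.14 and 0.07.

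Mitf, on chromosome 6, had 1 probe set well above background and 1 at it. The brighter, 1455214_at, read 8.15, 7.72, 8.32 and 7.92 on the Crebbp+/- arrays, against 7.94, 7.65, 7.34 and 7.82 on the wild-type arrays. The arrays overlapped, while both Crebbp+/- sample means were above both wild-type sample means. The genotype means were 8.03 ± 0.13 in Crebbp+/- and 7.69 ± 0.15 in wild type (SD, n = 2 each), a difference of 0.34 (SE 0.24), with 0.14 in the samples numbered 1 and 0.54 in those numbered 2. The dimmer probe set, 1422025_at, ran from 2.38 to 2.50, at background.

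Set side by side, Cpa3 differed between genotypes by 2.18 log2 units and no other measured gene of the list by more than 0.45. For each gene its probe set with the highest mean was taken. The differences of the other 8 genes ran from 0.003 to 0.45 with a median of 0.11, and all 8 were positive. When values under background were raised to it, Ms4a2, Fcer1a and Cma1 became -0.02. They lay below background in every sample, so this value is only the difference between the backgrounds of the genotypes. The difference of Mcpt8 was -0.03 without the second array of Crebbp+/- sample 1, and that of Fcer1g was -0.01 without wild-type sample 1. With a sample or array omitted, the median of the 8 genes ran from 0.032 (without Crebbp+/- sample 2) to 0.15. The median over all tested probe sets was 0.02, and 53.0% of them were positive. Ms4a2, Fcer1a, Cma1, Tpsb2 and Hdc were not among the tested probe sets, so this share is no yardstick for the count of 8. Without Hdc, whose value rests on 1 array, the largest of these differences was the 0.34 of Mitf. In the limma fit over all 22518 tested probe sets, 0 passed a Benjamini-Hochberg adjusted p of 0.05 between genotypes (0% called), with a lowest adjusted p of 0.991, and 1089 had an unadjusted p below 0.05. The fit had 2 residual degrees of freedom, and no test of Cpa3 is drawn from it.

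**Figure D2:**
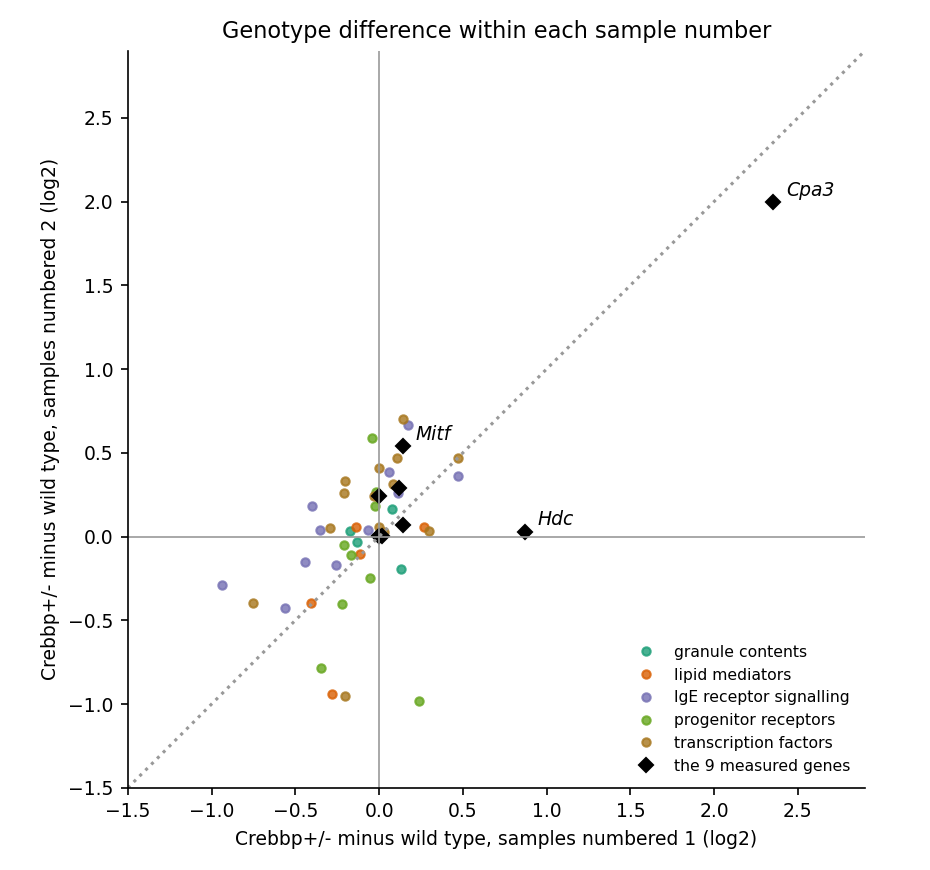
Crebbp+/- minus wild type in log2 units within the samples numbered 1 (horizontal axis) and within those numbered 2 (vertical axis), for the 9 measured genes (black diamonds) and for genes above background of the mast cell lists (coloured points by list); the dotted line marks equal differences. Cpa3 lies at 2.35 and 2.00, away from all other points, and Hdc lies off the line at 0.87 and 0.03.

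The sample number was not used to choose the genes. In a limma fit with genotype as covariate, 2209 of 22518 probe sets (9.81%) passed an adjusted p of 0.05 between sample numbers, a count that fell to 0 without the filter on low values. None of the 4 tested genes was among them. Cpa3 differed by 0.35 (SE 0.27, sample 2 minus sample 1, adjusted p = 0.44), as the mean of 0.17 in Crebbp+/- and 0.53 in wild type. Mcpt8 differed by -0.28 (SE 0.23, adjusted p = 0.46), Fcer1g by 0.20 (SE 0.15, adjusted p = 0.43) and Mitf by -0.02 (SE 0.19, adjusted p = 0.97). Cpa3 and Mcpt8 thus took opposite signs across the numbers in both genotypes, Mcpt8 with -0.20 in Crebbp+/- and -0.37 in wild type.

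Other genes of mast cell and basophil biology were taken from 5 lists covering granule contents, lipid mediators, IgE receptor signalling, receptors of mast cell progenitors and transcription factors. Of their 61 genes, 55 were measured and 43 had a mean above background in at least 1 genotype. Among these 43, the differences of 20 were positive and of 23 negative, with a median of -0.03 and a range from -0.61 to 0.47. None differed by 1 log2 unit. The limma fit called 0 of all 22518 tested probe sets, so no call could fall among these genes, and Alox5 and Cd200r3 were not tested. Arrays of the genotypes did not overlap for 3 of them, Alox5 and Stat5b above wild type and Alox5ap below it. For Alox5, near background and not tested, the lowest Crebbp+/- array (2.4569) barely exceeded the highest wild-type array (2.4568). For Stat5b these arrays read 8.271 and 8.262. Of all tested probe sets, 6.98% did not overlap in either direction.

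The granule list was mostly silent. Of its 11 measured genes, 7 were at background, between 2.25 and 2.34 on every array. These were the chymase genes Mcpt1, Mcpt2 and Mcpt4, the tryptase genes Tpsab1 and Tpsg1, the granzyme gene Gzmb and Tph1, an enzyme of serotonin synthesis. The 4 above background differed little, with a median of -0.05. Srgn, the proteoglycan core that holds granule proteases, had 12.41 ± 0.09 in Crebbp+/- and 12.49 ± 0.16 in wild type (SD, n = 2 each), a difference of -0.08 (SE 0.14). Ndst2, an enzyme of heparin synthesis, differed by -0.07 (SE 0.27), Ctsg, encoding cathepsin G, by -0.03 (SE 0.21), and Slc18a2, the vesicular monoamine transporter, by 0.12 (SE 0.45). Slc18a2 separated the sample numbers rather than the genotypes, with 7.60 and 6.82 in Crebbp+/- samples 1 and 2, against 7.52 and 6.66 in wild-type samples 1 and 2.

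Of the lipid mediator genes, 5 of 6 were above background, 1 with a positive and 4 with a negative difference (median -0.11). Alox5ap, which presents arachidonic acid to 5-lipoxygenase, read 9.74, 9.59, 9.53 and 9.62 on the Crebbp+/- arrays, against 9.92 to 10.14 on the wild-type arrays. It was lower in Crebbp+/- by 0.40 in mean (difference -0.40, SE 0.17), with -0.41 and -0.40 within the samples numbered 1 and 2. Like every other tested probe set, it was not called. Alox5, the lipoxygenase itself, ran from 2.45 to 2.98 and was close to background. Hpgds, the prostaglandin D synthase of mast cells, differed by -0.61 (SE 0.24), with wild-type arrays spread from 2.30 to 4.66. Pla2g4a, the phospholipase that frees arachidonic acid, differed by -0.11 (SE 0.24), and Ltc4s was at background.

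All 11 measured genes of IgE receptor signalling were above background, 4 with positive and 7 with negative differences (median -0.11). The kinases Syk and Fyn differed by 0.42 (SE 0.27) and 0.19 (SE 0.21), and the phosphatase Inpp5d by 0.42 (SE 0.25). The adaptors Lat and Lcp2 differed by -0.49 (SE 0.28) and -0.61 (SE 0.29), and the phospholipase Plcg1 by -0.01 (SE 0.11). Many blood cells use these genes, so the list is not specific to mast cells.

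Of the 12 measured receptors of mast cell progenitors, 9 were above background, 3 with positive and 6 with negative differences (median -0.14). Kit had 9.32 ± 0.01 in Crebbp+/- and 9.20 ± 0.22 in wild type (SD, n = 2 each), a difference of 0.12 (SE 0.21). Csf2rb, the beta chain shared by receptors for interleukin-3, interleukin-5 and GM-CSF, differed by 0.08 (SE 0.22), and Csf2rb2, the mouse beta chain specific to interleukin-3, by -0.56 (SE 0.37). Il3ra differed by -0.31 (SE 0.40), and Itgb7, an integrin chain of mast cell progenitors, by -0.37 (SE 0.40). Il1rap, the partner chain of the interleukin-33 receptor, differed by 0.27 (SE 0.31).

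Among 15 transcription factors, 14 were above background, 11 with positive and 3 with negative differences (median 0.08). Gata2, a factor of stem cells and mast cells, differed by 0.20 (SE 0.47), and separated the sample numbers, with 11.29 and 10.53 in Crebbp+/- samples 1 and 2, against 11.29 and 10.12 in wild-type samples 1 and 2. Gata1, a factor of mast cells and red cells, differed by -0.58 (SE 0.28), and Tfec, a relative of Mitf, by -0.58 (SE 0.26). Cebpa, a factor of granulocyte development, differed by 0.47 (SE 0.33). Stat5a and Stat5b, which act below cytokine receptors, differed by 0.29 (SE 0.22) and 0.42 (SE 0.26). For Gata1 both Crebbp+/- samples (3.62 and 3.37) lay below both wild-type samples (3.82 and 4.32), while for Gata2 the samples of the genotypes overlapped. The part of these factors in the Cpa3 difference was not tested.

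**Figure D3:**
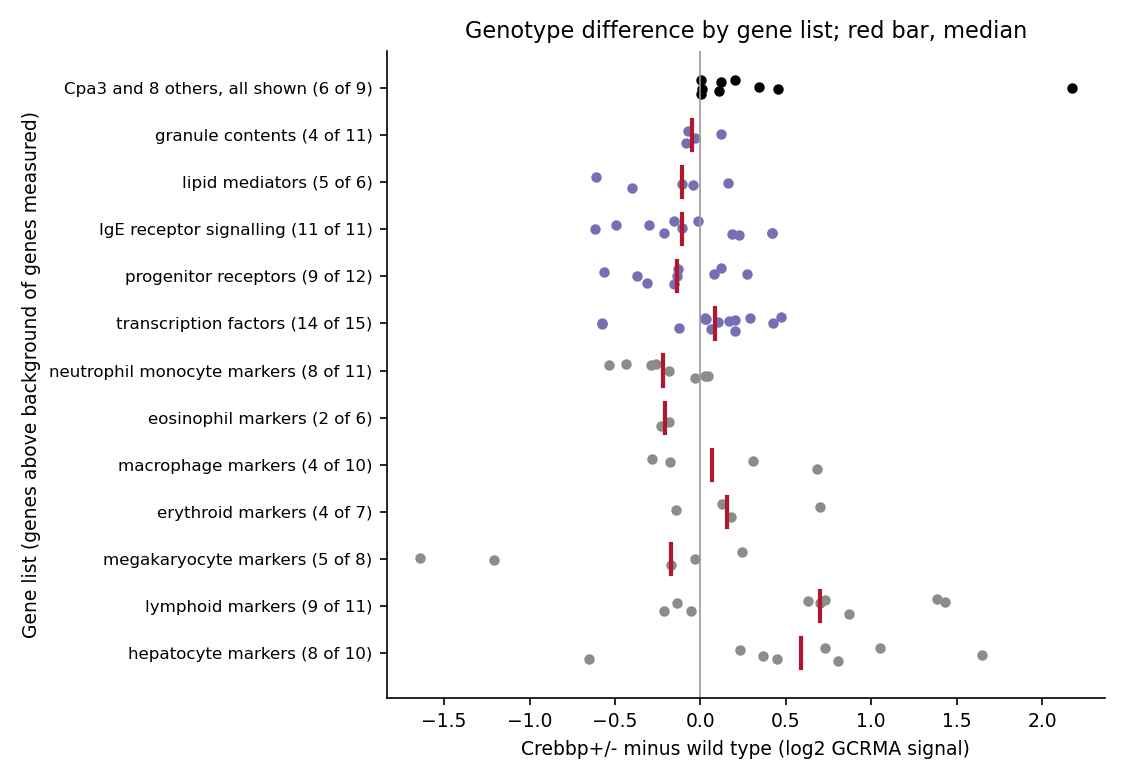
Crebbp+/- minus wild type in log2 GCRMA signal (horizontal axis) for the genes of each list (vertical axis), with 1 point per gene and a red bar at the median of the genes above background; for Cpa3 and its 8 companions all measured genes are drawn and no median is given. Cpa3 lies at 2.18, and the mast cell lists in purple lie between -0.61 and 0.47.

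Enzymes related to Cpa3 did not share its difference in size. Of 11 other carboxypeptidase genes measured, 8 were at background, among them Cpa1, Cpa4, Cpa5 and Cpa6, and the 3 above it differed by -0.10 (Cpd, SE 0.30), 0.30 (Cpe, SE 0.17) and -0.27 (Cpq, SE 0.30). Of 11 further serine protease genes measured, the 8 granzyme genes were at background. Prtn3, a protease of neutrophil granules, differed by 0.02 (SE 0.20) and Elane, encoding neutrophil elastase, by -0.29 (SE 0.25). Prss16 differed by -0.47 (SE 0.21), with all Crebbp+/- arrays below all wild-type arrays. Its Crebbp+/- arrays lay between 2.66 and 2.76, near the filter, and its lowest wild-type array was at 2.77.

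The sorted identity and the markers of other cells give the setting of the Cpa3 values. Of 7 surface markers listed for the sorted cells, 6 were measured and all 6 were above background in all samples. These were Kit, Cd93 (which carries the AA4.1 epitope), Cd34, Ptprc, Cd48 and Slamf1. Cd48 was bright, with means of 10.43 in Crebbp+/- and 10.09 in wild type, and Slamf1 was low, with 3.67 and 3.55. Ly6a, the gene of the sort marker Sca-1, had no probe set under this symbol. Of 6 eosinophil markers, Epx, Prg2, Prg3 and Ccr3 were at background and 2 were above it. Siglecf had 4.91 and 5.58 in the Crebbp+/- samples, against 4.91 and 6.05 in the wild-type samples, and Il5ra had 2.62 and 2.63 in Crebbp+/-, against 2.60 and 3.01 in wild type. In the lymphoid list, 6 of 9 genes above background had positive differences (median 0.70). Its summed linear signal was 1165 and 1389 in the Crebbp+/- samples, against 766.3 and 963.2 in the wild-type samples. Ccr9, a chemokine receptor of lymphoid progenitors, differed by 1.43 (SE 0.33), and Cd3e and Cd3g were at background. In the megakaryocyte list, 4 of 5 genes had negative differences, and its summed signal was 100.3 and 118.5 in Crebbp+/-, against 183.6 and 188.7 in wild type. The erythroid sum was 38.7 and 42.0 in Crebbp+/-, against 35.7 and 36.5 in wild type. Hba-a1, Alas2 and Ermap of this list were at background, and 3 of the 4 genes above it had positive differences, the largest at Slc4a1 (0.70, SE 0.24), whose Crebbp+/- arrays all lay above the wild-type arrays. The lymphoid sum thus separated the genotypes in the direction of Cpa3 and the megakaryocyte sum in the opposite one. Neither separation rested on the whole list. In the megakaryocyte list Gp9 and Vwf differed by -1.21 and -1.64, against -0.17, -0.03 and 0.24 at Pf4, Itga2b and Itgb3. Among the brighter lymphoid genes, Ccr9 separated the samples of the genotypes, while those of Il7r, Ebf1, Cd79b and Nkg7 overlapped. The dimmer Rag1, Vpreb1 and Igll1 also separated them, higher in Crebbp+/-. The erythroid sum was also higher in Crebbp+/-, but most of its genes lay near background. Slc4a1 was clearly raised only on the second array of each Crebbp+/- sample (3.31 and 4.37). Its first arrays read 2.548 and 2.531, against a highest wild-type array of 2.528. The part of these lists in the Cpa3 difference was not tested.

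The sums of the neutrophil and monocyte, macrophage, eosinophil, endothelial and hepatocyte lists overlapped between genotypes. In the hepatocyte list, 7 of 8 genes above background had positive differences (median 0.59), and the differences of 6 of the 8 were positive within the samples numbered 1 and negative within those numbered 2. Alb, encoding albumin, had 5.85 and 5.74 in the Crebbp+/- samples, against 2.43 and 7.06 in the wild-type samples. Cpa3 was lowest, at 2.92, in the wild-type sample in which Alb was near background. The Cpa3 difference was 2.00 within the samples numbered 2, where Alb was lower in Crebbp+/-. With 1 sample per genotype and number, the part of the hepatocyte genes in the Cpa3 difference was not tested.

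The probe sets whose profile over the 8 arrays was most like that of Cpa3 were sought among 9708 tested probe sets with a range of at least 1 log2 unit. The measure was Pearson's r, given without a p because arrays of a sample and of a genotype are not independent, and any probe set that separates the genotypes scores high. Btbd11, a gene for a BTB domain protein, came first with r = 0.977, and a second of its probe sets was also among the first 8 with r = 0.942. Between them were Fam102b (r = 0.962) and Rtp4 (r = 0.953), a gene known to respond to interferon. Then came Tmem184c (r = 0.934), Aif1l (r = 0.930), the Runt family factor Runx3 (r = 0.929) and Ints12, a subunit of the Integrator complex (r = 0.925). None of these genes belongs to the mast cell lists or to the 10 genes. With only 8 probe sets taken from 9708, an overlap was unlikely in any case, and nothing is concluded from its absence.

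All of these genes differed less than Cpa3, which had been chosen for its difference. Btbd11 had 7.43 ± 0.02 in Crebbp+/- and 6.41 ± 0.30 in wild type (SD, n = 2 each), a difference of 1.02 (SE 0.29), with 0.85 and 1.14 at its other probe sets. Aif1l, a relative of an actin-binding protein of macrophages, came nearest to Cpa3 in size, with 6.67 ± 0.61 in Crebbp+/- and 4.62 ± 0.62 in wild type (SD, n = 2 each), a difference of 2.05 (SE 0.48). Of its other probe sets, one differed by 1.45 and one was at background. Other probe sets did not always follow, as Ints12 differed by 0.57 at the chosen probe set and by -0.20 at its brighter one. The least like were Gm6958 (r = -0.977, difference -0.83), the nuclear noncoding RNA Malat1 (r = -0.961, difference -0.72) and Ahctf1, which encodes a protein of the nuclear pore (r = -0.959, difference -1.02). All 7 Malat1 probe sets had negative differences, whereas those of Ahctf1 disagreed, with 0.60, -0.02 and -0.68 at its other probe sets.

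**Figure D4:**
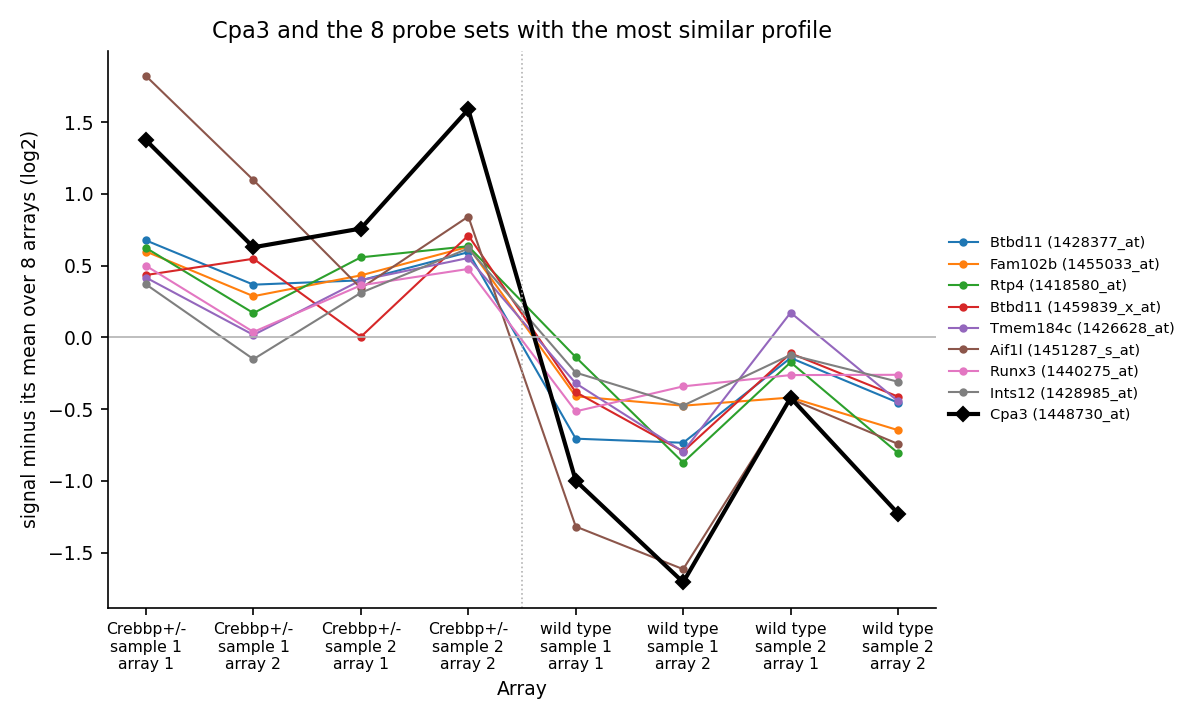
Log2 signal minus its mean over the 8 arrays (vertical axis) on each array (horizontal axis, Crebbp+/- left of wild type) for Cpa3 in black and for the 8 probe sets most like it in colour, which belong to 7 genes. Most coloured lines move less than Cpa3, and Aif1l moves about as far, with a difference of 2.05 against 2.18.

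Genes beside Cpa3 on chromosome 3 were looked up in the GRCm38.p6 gene table, 5 on each side. Crh, Cp, Hps3, Hltf and Gyg lie on one side, and Cpb1, Agtr1b, Tbl1xr1, Rprl2 and Spin3-ps on the other. Cpb1, a pancreatic carboxypeptidase and the next gene after Cpa3, was at background on all arrays, from 2.27 to 2.28, as was Agtr1b. Gyg, Hps3 and Tbl1xr1 were bright in both genotypes and differed by -0.03 (SE 0.15), -0.05 (SE 0.17) and 0.10 (SE 0.14). Hltf, a DNA translocase of the SWI/SNF family, differed by 0.61 (SE 0.34), with 0.42 and 0.79 within the samples numbered 1 and 2, and its arrays overlapped. Crh and Cp were close to background, and Rprl2 and Spin3-ps had no values here. None of the measured neighbours separated the genotypes by array. Of all tested probe sets only 6.98% did so in either direction, and nothing is concluded from its absence among the neighbours.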

How the data were processed

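The deposited values are log2 signals made by the authors with GCRMA, per the submitters' processing notes; its version is not given in the sources used here. Of 45101 rows, 64 were controls, and 34945 of the other 45037 probe sets carried 1 symbol. Array medians lay between 2.65 and 2.70. Arrays of a sample were averaged. The 22518 probe sets with a mean above 2.72 entered linear models in limma 3.58.1 (R 4.3.3, eBayes with trend), with Benjamini-Hochberg adjustment over all of them at 0.05. The procedure was tested on simulated data. Each gene was represented by its brightest probe set. A gene was above background where a genotype's mean exceeded the mean of its samples' 95th percentiles of olfactory receptor probe sets. Motifs were counted in 250 bases before RefSeq starts.

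The members and lists were chosen with earlier results of these data known. Named were all members, up to 4 genes per mast cell list with the largest absolute difference plus the 2 brightest, the 8 probe sets most and 3 least like Cpa3 by r, 5 neighbours on each side, and bright or background markers of other cells. Alternatives covered omissions, scaling, background, filter, variance model, replicate unit and the replicate block. The number of arrays limits the precision.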

Additional observations from a re-analysis of the deposited data

Results flagged for a closer look

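Hdc probe set 1454713_s_at read 4.13 on the first array of Crebbp+/- sample 1, far from the other 3 Crebbp+/- arrays, which lay between 2.46 and 2.48. The gap to the nearest array was a larger part of the range than Dixon's critical value for 4 values allows, among 7 groups of 4 arrays with a range of at least 0.5, and chance marks about 1 group in 20. The second array of the same sample read 2.46.

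Of 8 hepatocyte genes above background, 6 had genotype differences of opposite signs in the sample numbers, and for 3 of them each difference was at least 0.5 and the arrays did not overlap within either number. In the samples numbered 1 the Alb difference was 3.42, and in those numbered 2 it was -1.32, a gap of 4.75. The gaps were 4.46 for Afp and 3.15 for Apoa1. These gaps were not tested, with 1 sample per genotype and number.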

How the results depend on the processing

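The Cpa3 difference ran from 1.91 to 2.44 over 14 alternatives (each sample or array omitted, quantile normalization, a floor at background). Since the choice of Cpa3 rests on arrays that do not overlap, no omission could turn its sign. The count of probe sets called between genotypes stayed 0 in 18 of 19 alternatives, among them the sample number as a replicate block (0 called, lowest adjusted p = 0.11). Same-numbered samples deviated together with a correlation of 0.55 over probe sets, but no label pairs them. With 8 arrays as independent, 1 probe set was called, which lists no single symbol (-1.70). The median difference of the companion genes, 0.11, ran from 0.032 to 0.15 with omissions. It was 0.095 with the floor, 0.083 with the probe sets of a gene averaged and 0.20 over genes above background alone. With omissions Mcpt8 ran from -0.03 to 0.44, Fcer1g from -0.01 to 0.22, Mitf from 0.22 to 0.46 and Hdc from 0.03 to 0.87. Calls between sample numbers, 2209, became 0 without the filter, 0 without the intensity trend and 4587 with 8 arrays as independent. Signals near background limit what can be said of the remaining genes.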
